A study of Mus musculus with 18 samples.

Results

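The interaction of dexamethasone with 20 µM ginsenoside Rc was measured in 12 of the 18 libraries of the series, 3 in each of 4 groups. It was computed for every gene as a difference of differences: dexamethasone with ginsenoside minus dexamethasone, less ginsenoside minus control. All 15436 genes that passed a filter on low counts were tested, out of 48795 gene IDs in the table. The cells were C2C12 myotubes, muscle fibres that form by fusion of a mouse myoblast line, differentiated for 5 days in horse serum. Control cultures received vehicle, 0.1% DMSO, for 36 h, and the ginsenoside group received 20 µM ginsenoside Rc for 36 h. The dexamethasone group received vehicle for 12 h and then 200 µM dexamethasone for 24 h. The fourth group received 20 µM ginsenoside Rc for 12 h before the same 24 h with dexamethasone. Whether the ginsenoside stayed on during those 24 h is not given in the sources used here. If it did not, the groups with ginsenoside also differed in hours of exposure. The interaction could not tell such a difference apart from that of dexamethasone. A culture of 1 immortal line holds no nerve or vessel, and unfused myoblasts can remain in it. No label states that the 3 replicates were grown as independent cultures, so each p-value reflects only the spread among these libraries, which may be technical.

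Dexamethasone is a synthetic glucocorticoid. It binds the glucocorticoid receptor, which enters the nucleus, activates genes such as Fkbp5 and Tsc22d3 and represses others, and in muscle it is known for raising the ubiquitin ligases Fbxo32 and Trim63 and causing atrophy. Ginsenoside Rc is a triterpenoid saponin of ginseng. The design asks whether pre-treatment with it changes the dexamethasone response. An interaction of 0 on the log2 scale means that the fold effect of the ginsenoside was equal with and without dexamethasone; a positive value means that the ginsenoside effect was more positive with dexamethasone, and equally that the dexamethasone effect was more positive with ginsenoside.

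The 12 libraries held 36523062 to 45388609 expected counts. Replicate 2 of the ginsenoside group stood apart: mitochondrially encoded genes took 2.56% of its counts, against 1.095% to 1.748% in the other 11 libraries, and ribosomal protein genes took 1.321%, against 1.528% to 1.985%. On the second principal component, which held 5.369% of the variance, it scored -47.9 and the other 11 scored -2.947 to 10.47. The results are therefore given with this library and, where it bears on them, without it. The 12 myotube markers, among them Myh3, Acta1 and Myog, were all detected, and their summed level was 24750 to 25650 CPM (the read count scaled to library size by TMM) in control, 26690 to 26910 with ginsenoside, 28780 to 30070 with dexamethasone and 29610 to 31570 with both. The 14 markers of undifferentiated myoblasts were unequal in level. Itga7 reached 1888 CPM, Cdh15 417 and every other member at most 76.9, so Itga7 and Cdh15 dominate their sum. The median dexamethasone effect of the 13 tested markers was -0.5247 (log2) without ginsenoside and -0.6456 with it, which the sum does not show. The sum was 2560 to 2648 CPM in control, 2143 to 2705 with ginsenoside, 2280 to 2322 with dexamethasone and 2213 to 2257 with both, with 1 of 14 at or below 3 counts. Fibroblast markers summed to 5742 to 6215, 4872 to 6094, 3523 to 3931 and 3324 to 3493 CPM in the same order, with Tcf21 at 0 in all 12 libraries. Their part in the results below was not tested. In such bulk samples, fewer cells of a type and less RNA per cell cannot be told apart.

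With all libraries no gene passed the interaction test. At a Benjamini-Hochberg adjusted p below 0.05, edgeR's quasi-likelihood test called 0 of 15436 genes (0%), with a smallest adjusted p of 0.1175, and 816 genes (5.286%) had an unadjusted p below 0.05. Limma voom with quality weights also called 0, with 1673 genes at an unadjusted p below 0.05. DESeq2 called 1, with 727 genes at an unadjusted p below 0.05. With 1 of the 12 libraries left out in turn, edgeR gave 556 to 1794 such genes. Without replicate 2 of the ginsenoside group, edgeR called 2 of 15618 genes (0.0128%), Lgr6 and Vgll2, and 895 genes (5.731%) had an unadjusted p below 0.05. The median interaction over all tested genes was 0.0026 (log2), the quartiles were -0.1065 and 0.1099, and 50.76% of genes were above 0.

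The intervals show how large an interaction each gene still allows. The median standard error was 0.13 (log2). For 10363 genes (67.14%) the 95% interval lay inside a 1.5-fold interaction in either direction, and for 10230 of the 11786 genes with a mean log2 CPM of at least 1 (86.8%). Among the 5875 genes with a mean log2 CPM of at least 5 this share was 94.42%. For the remaining genes the interval did not exclude a 1.5-fold interaction at this depth and with 3 libraries a group. Without ginsenoside replicate 2 the median standard error was 0.1028 and the interval lay inside 1.5-fold for 10904 of 15618 genes (69.82%).

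Lgr6, which binds R-spondin and thereby strengthens Wnt signalling, had the smallest interaction p. Without dexamethasone, Lgr6 was at 20.5, 16.9 and 19.9 CPM in the control libraries and at 15.3, 16.6 and 17.1 CPM with 20 µM ginsenoside Rc. With dexamethasone it was at 10.1, 7.92 and 8.16 CPM, and with both agents at 4.22, 4.15 and 4.16 CPM. The means were 19.1 ± 1.90, 16.3 ± 0.964, 8.74 ± 1.22 and 4.18 ± 0.0400 CPM (SD, n = 3) in the same order. All libraries with both agents were below all libraries with dexamethasone alone, while the ranges of the ginsenoside and control groups overlapped. The ginsenoside effect on Lgr6 was -0.23 ± 0.09 (log2 fold change, SE) without dexamethasone and -1.06 ± 0.10 with it (edgeR adjusted p = 0.458 and 8.9e-05). The interaction was -0.84 ± 0.13 (95% interval -1.12 to -0.56, edgeR adjusted p = 0.117), and -0.83 ± 0.13 without ginsenoside replicate 2 (adjusted p = 0.0255). Over the 20 alternative settings its value ran from -0.90 to -0.72 and its adjusted p from 0.000326, with DESeq2, to 0.796.

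Vgll2, a muscle-expressed cofactor of TEAD transcription factors, passed only when that library was left out. Without dexamethasone, Vgll2 was at 13.6, 13.4 and 13.6 CPM in the control libraries and at 11.6, 20.4 and 10.8 CPM with 20 µM ginsenoside Rc. With dexamethasone it was at 8.08, 7.62 and 9.07 CPM, and with both agents at 11.5, 11.0 and 12.2 CPM. Replicate 2 of the ginsenoside group was the highest of the 12 libraries. The interaction of Vgll2 was 0.42 ± 0.24 with all libraries (95% interval -0.09 to 0.93, edgeR adjusted p = 0.885) and 0.76 ± 0.12 without it (adjusted p = 0.0255). Over the alternatives the value ran from 0.25 to 0.79 and the adjusted p from 0.0128 to 1.

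**Figure D1:**
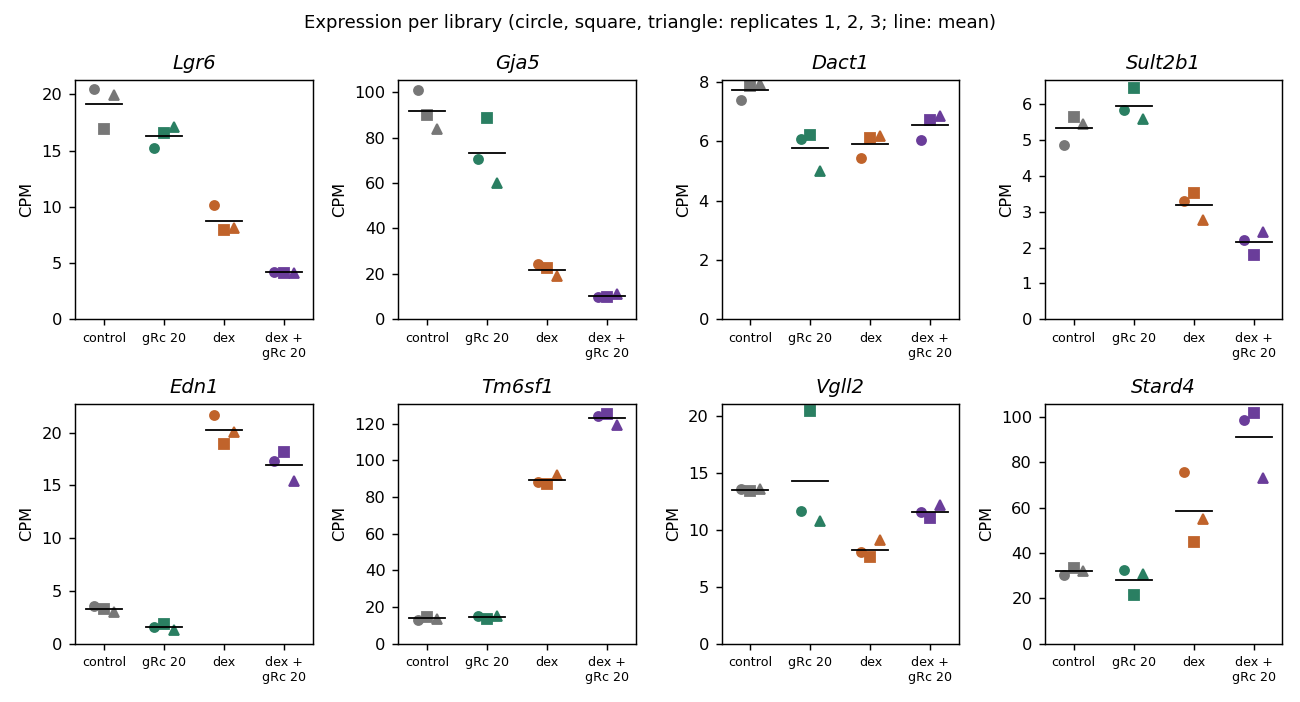
CPM of 8 genes in the 12 libraries (vertical axis, CPM from 0) by group (horizontal axis; gRc 20 is 20 µM ginsenoside Rc, dex is 200 µM dexamethasone), with 1 point per library and a line at the group mean. Lgr6 sits at 4.15 to 4.22 CPM in the 3 libraries with both agents, and Vgll2 at 20.4 CPM in replicate 2 of the ginsenoside group.

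Edn1 encodes the precursor of the vasoconstrictor peptide endothelin-1. The control libraries held Edn1 at 3.60, 3.33 and 3.02 CPM and the ginsenoside libraries at 1.61, 1.89 and 1.34 CPM. Dexamethasone libraries held it at 21.7, 18.9 and 20.1 CPM, and those with both agents at 17.4, 18.2 and 15.4 CPM. The ginsenoside libraries were all below the control libraries, and the libraries with both agents were all below those with dexamethasone alone, by a smaller fold. The ginsenoside effect was -1.04 ± 0.13 without dexamethasone (edgeR adjusted p = 0.00136) and -0.25 ± 0.09 with it (adjusted p = 0.279). The interaction was 0.79 ± 0.16 (95% interval 0.46 to 1.12, edgeR adjusted p = 0.47), and without ginsenoside replicate 2 it was 0.91 ± 0.16 (adjusted p = 0.0663). Seen from the dexamethasone side, Edn1 was higher with dexamethasone by 2.61 (log2) without ginsenoside and by 3.40 with it.

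The proximal promoters of these 3 genes are shown because their interactions were the 3 leading ones without the library that stood apart. Each is the 250 bases before the RefSeq start (build GRCm38.p6), written 5′ to 3′ on the gene's strand. The gene bodies lie at chr1:134983301-135105276 for Lgr6, chr10:52022502-52028471 for Vgll2 and chr13:42301476-42307990 for Edn1 (GRCm38, all protein coding), so each window lies just outside the annotated gene. The Lgr6 window is at chr1:135105277-135105526 (minus strand), that of Vgll2 at chr10:52022252-52022501 (plus strand) and that of Edn1 at chr13:42301226-42301475 (plus strand). Capitals mark matches, on either strand, to 4 motifs: the glucocorticoid response element of 2 half-sites (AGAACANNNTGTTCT), its half-site (TGTTCT, which the longer motif contains), the sterol regulatory element core (CACCCCAC) and the CCAAT box.
Lgr6: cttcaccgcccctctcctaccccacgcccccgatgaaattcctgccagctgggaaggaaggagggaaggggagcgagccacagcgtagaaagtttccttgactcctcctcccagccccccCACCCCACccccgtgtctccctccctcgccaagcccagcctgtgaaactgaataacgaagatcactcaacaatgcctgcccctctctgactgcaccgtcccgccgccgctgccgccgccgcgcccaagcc
Vgll2: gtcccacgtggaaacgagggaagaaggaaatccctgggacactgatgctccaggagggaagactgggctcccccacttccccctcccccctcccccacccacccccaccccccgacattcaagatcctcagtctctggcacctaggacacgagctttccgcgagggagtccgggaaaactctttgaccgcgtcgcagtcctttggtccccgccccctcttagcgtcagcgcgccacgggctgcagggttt
Edn1: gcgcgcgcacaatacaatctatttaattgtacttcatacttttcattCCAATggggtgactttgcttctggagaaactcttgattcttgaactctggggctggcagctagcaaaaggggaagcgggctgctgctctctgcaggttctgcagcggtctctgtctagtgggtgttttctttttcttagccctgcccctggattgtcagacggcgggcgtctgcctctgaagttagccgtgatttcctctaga

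The Lgr6 window held 1 match to the sterol element core, the Edn1 window 1 CCAAT box and the Vgll2 window no match. None of the 3 held the glucocorticoid half-site. Among 32841 promoter windows of 250 bases, 16.09% held the half-site, 0.009135% the pair of half-sites, 2.576% the sterol element core and 33.86% the CCAAT box. A match describes letters only, and glucocorticoid receptor sites often lie outside such a window.

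Gja5 encodes connexin 40, a gap junction protein. Gja5 was measured at 101, 90.1 and 83.8 CPM in control and 70.5, 88.7 and 60.2 CPM with ginsenoside. Its level was 24.3, 22.4 and 19.1 CPM with dexamethasone and 9.96, 9.74 and 11.2 CPM with both agents. The libraries with both agents were all below those with dexamethasone alone, and the ranges without dexamethasone overlapped. Its interaction was -0.77 ± 0.17 (95% interval -1.13 to -0.41, edgeR adjusted p = 0.542) and -0.61 ± 0.15 without ginsenoside replicate 2. The ginsenoside effect was -1.09 ± 0.13 with dexamethasone (edgeR adjusted p = 0.00065) and -0.33 ± 0.11 without (adjusted p = 0.406). Gja5 also stands among 10 endothelial markers, of which Tie1 had no count in the 12 libraries and Pecam1, Kdr, Emcn and Erg reached at most 0.0823 CPM. Vwf reached 1.57 CPM, Tek 0.686, Cldn5 0.400 and Cdh5 0.384. The 4 markers that passed the filter all had interactions below 0, with Cdh5 at -1.22 ± 0.80, Tek at -0.41 ± 0.54 and Vwf at -0.24 ± 0.32 beside Gja5. Without ginsenoside replicate 2, 1 of the 4 was above 0. Their part in the Gja5 value was not tested. The summed level of the 10 markers, which Gja5 dominates, was 85.93 to 103.7 CPM in control, 62.26 to 91.35 with ginsenoside, 20.03 to 25.73 with dexamethasone and 10.89 to 11.94 with both, with 5 or 6 of them at or below 3 counts.

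Tm6sf1, a transmembrane protein gene, had an interaction above 0. In control it was at 13.2, 14.5 and 13.7 CPM and with ginsenoside at 15.3, 13.4 and 15.2 CPM. The 3 dexamethasone libraries had 88.4, 87.1 and 92.2 CPM, and the 3 with both agents 124, 125 and 119 CPM. The libraries with both agents were all above those with dexamethasone alone, while the ranges without dexamethasone overlapped. Its ginsenoside effect was 0.08 ± 0.06 without dexamethasone and 0.46 ± 0.05 with it (edgeR adjusted p = 0.638 and 0.00037), and its interaction was 0.38 ± 0.08 (adjusted p = 0.47), or 0.32 without ginsenoside replicate 2.

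Sult2b1, a sulfotransferase that conjugates sterols, had ginsenoside effects of opposite sign in the 2 arms. The control libraries held Sult2b1 at 4.85, 5.65 and 5.45 CPM and the ginsenoside libraries at 5.83, 6.44 and 5.57 CPM. Dexamethasone libraries held it at 3.29, 3.52 and 2.78 CPM, and those with both agents at 2.20, 1.80 and 2.43 CPM. The libraries with both agents were all below those with dexamethasone alone, and the ranges without dexamethasone overlapped. The effect was 0.16 ± 0.10 without dexamethasone (edgeR adjusted p = 0.624) and -0.58 ± 0.12 with it (adjusted p = 0.0391), and the interaction was -0.74 ± 0.16 (adjusted p = 0.47), or -0.68 without ginsenoside replicate 2.

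The 16 leading genes, which are the 2 called without the library and the 14 others of smallest p with all libraries, had 6 interactions above 0 and 10 below. Beside those described, and leaving out 1 below 0, the values above 0 were Dact1, an intracellular antagonist of Wnt signalling, at 0.57 ± 0.13, Hist2h2be, a histone H2B gene, at 0.63 ± 0.16 and Ero1l, an oxidase of the endoplasmic reticulum, at 0.34 ± 0.08. Those below 0 were Lctl at -0.63 ± 0.15, Gm44220 at -0.62 ± 0.15, Rgs2, a regulator of G protein signalling, at -0.49 ± 0.12, Nptx1, a neuronal pentraxin, at -0.43 ± 0.10, Arhgef3, a guanine nucleotide exchange factor, at -0.33 ± 0.07 and Pgm5, a phosphoglucomutase relative found in muscle adhesions, at -0.24 ± 0.06. For Ero1l and Hist2h2be the ginsenoside libraries were all below control without dexamethasone and all above their reference with it, and for Arhgef3 the reverse held. Also Trib1 at 0.46 ± 0.10 and Hs3st3a1 at 0.72 ± 0.16 were among the 8 of smallest p without ginsenoside replicate 2. Each of the 71 genes named by rule kept the sign of its interaction without that library.

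The ginsenoside comparisons of the 2 arms share no library, so their values can be set beside each other. Without dexamethasone 16 of 15436 genes passed (0.104%), 2 higher and 14 lower, and with dexamethasone 57 passed (0.369%), 18 higher and 39 lower. In both arms 5 genes passed, 31.25% of the first list and 8.772% of the second: Axin2, a feedback inhibitor of Wnt signalling, the collagen Col23a1, the fibulin Fbln7, the laminin chain Lamb3 and Myh8, the perinatal myosin heavy chain. All 16 genes of the first list had the same sign in the other arm, with a median size of 0.5171 in their own arm and 0.2528 in the other. Of the 57, 55 had the same sign, with medians of 0.3858 and 0.1699; the exceptions were Sult2b1 and Rassf2. A gene's own arm selected it, so the smaller value in the other arm shows no difference by itself. The test of that difference is the interaction, which edgeR called for none of these genes with all libraries; DESeq2, and edgeR with no low-count filter, called Lgr6 (adjusted p = 0.000326 and 0.00563).

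Single libraries moved both counts by more than 1.5 times. Without ginsenoside replicate 2 the counts were 44 and 341. For the arm without dexamethasone, the count was 5, 7 and 6 without control replicates 1, 2 and 3, and 7 without ginsenoside replicate 3. It was 9 without dexamethasone replicate 3, and 9, 10 and 30 without replicates 1, 2 and 3 of the group with both agents. Libraries of these groups enter this arm only through the shared spread, the filter on low counts and the scaling. For the arm with dexamethasone, it was 89, 14 and 24 without dexamethasone replicates 1, 2 and 3, and 9, 6 and 224 without replicates 1, 2 and 3 of the group with both agents.

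For the 5 genes that passed in both arms the interaction was between -0.20 and 0.16. Col23a1 was at 18.6, 18.3 and 18.4 CPM in control and 10.8, 12.6 and 10.7 CPM with ginsenoside, and at 6.02, 7.02 and 5.97 CPM with dexamethasone and 3.37, 3.12 and 3.73 CPM with both. Its ginsenoside effect was -0.70 and -0.90 (log2), with an interaction of -0.20 ± 0.12 (95% interval -0.45 to 0.05), or -0.12 without ginsenoside replicate 2. Myh8 was at 511, 525 and 526 CPM in control and 717, 729 and 774 CPM with ginsenoside, and at 1324, 1475 and 1443 CPM with dexamethasone and 1767, 1782 and 1769 CPM with both. Ginsenoside libraries were above their reference libraries in both arms, and the interaction was -0.18 ± 0.07 (95% interval -0.34 to -0.02), or -0.19 without ginsenoside replicate 2. The interaction was 0.03 ± 0.13 for Axin2 (95% interval -0.25 to 0.30), 0.16 ± 0.11 for Lamb3 and -0.05 ± 0.16 for Fbln7.

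Other genes of smallest p in 1 arm had interactions between -0.38 and 0.37. In the arm without dexamethasone these included Nt5e, the ecto-5′-nucleotidase CD73, with an interaction of 0.37 ± 0.12, Lrrc17 with 0.16 ± 0.07, Serpinb6b with 0.27 ± 0.13, Ly6c2 with 0.21 ± 0.10 and the calponin Cnn2 with 0.08 ± 0.07. In the arm with dexamethasone they included Padi2, a peptidylarginine deiminase, with -0.38 ± 0.11, Nabp1, a single-stranded DNA binding protein, with 0.28 ± 0.08, Slc44a4 with -0.25 ± 0.08 and the integrin chain Itga6 with -0.19 ± 0.07. For Padi2 the 95% interval was -0.61 to -0.14, for Nabp1 0.10 to 0.45 and for Nt5e 0.13 to 0.61, none of which passed after adjustment. Across the 11786 genes with a mean log2 CPM of at least 1, the ginsenoside effects of the 2 arms had a Pearson correlation of 0.2366 and a Spearman correlation of 0.165; genes of one library are not independent of each other, so these are descriptions. Without ginsenoside replicate 2 they were 0.2637 and 0.265, and 43 of 44 and 289 of 341 called genes had the same sign in the other arm.

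**Figure D2:**
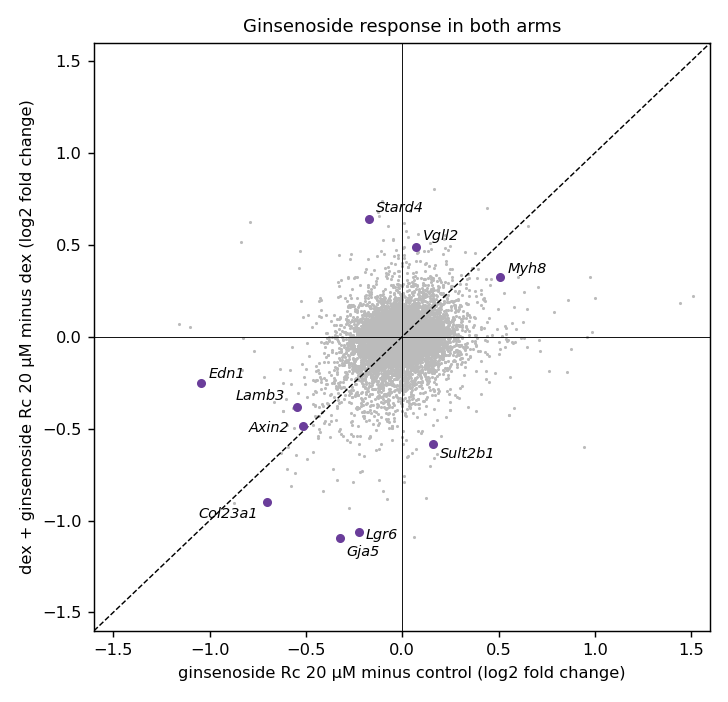
Ginsenoside effect without dexamethasone (horizontal axis, log2 fold change) against that with dexamethasone (vertical axis, log2 fold change) for 11786 genes, with 6 genes outside the axes; on the dashed line the interaction is 0. Col23a1 and Axin2 lie near the line, and Lgr6 and Gja5 lie below it.

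Genes that respond to dexamethasone were taken from the 10 µM libraries, which are not among the 12 compared here (dexamethasone with 10 µM ginsenoside against 10 µM ginsenoside). At an adjusted p below 0.05 and more than a 2-fold change in those libraries, 569 genes were raised and 1029 lowered. In the 12 libraries the raised genes had a median dexamethasone response of 1.441 (log2) without and 1.55 with 20 µM ginsenoside, and a median interaction of 0.076. Of these, 343 (60.28%) were above 0 and 68 (11.95%) had an unadjusted p below 0.05, against 50.76% and 5.286% of all tested genes. The lowered genes had a median response of -1.543 without and -1.649 with ginsenoside and a median interaction of -0.140. Of these, 317 (30.81%) were above 0 and 107 (10.4%) had an unadjusted p below 0.05. With all libraries edgeR called no gene of either list. Of the lowered genes 1, Lgr6, was called by edgeR without ginsenoside replicate 2, and with all libraries by DESeq2 (adjusted p = 0.000326) and by edgeR with no low-count filter (adjusted p = 0.00563).

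The mean log2 CPM of each 2-fold list overlapped between the groups. The raised genes were at 2.634, 2.542 and 2.593 with dexamethasone and at 2.706, 2.715 and 2.601 with both agents. The lowered genes were at 0.307, 0.501 and 0.389 with dexamethasone and at 0.116, 0.0853 and 0.364 with both. Replicate 3 of the group with both agents lay within the range of the dexamethasone group in both lists, and its replicates 1 and 2 lay outside it in both. The median interaction of the raised genes was 0.052 to 0.108 when each of the 12 libraries was left out in turn. That of the lowered genes was -0.0809 without dexamethasone replicate 2, -0.0854 without replicate 2 of the group with both agents and -0.215 without its replicate 3.

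The gene lists below are read against all tested genes, of which 50.76% had an interaction above 0 and 5.286% an unadjusted p below 0.05. The second share holds for edgeR with all libraries, where it is 816 genes. With 1 library left out that number was 556 to 1794. Some genes are in more than 1 list. Known targets of the glucocorticoid receptor had interactions on both sides of 0. Of 28 tested members, 0 were called, 6 had an unadjusted p below 0.05, 14 were above 0 and the median was -0.0055, or 0.060 without ginsenoside replicate 2. For 18 of the 28 the 95% interval lay inside 1.5-fold. Fkbp5 was measured at 22.9, 24.9 and 23.5 CPM in control and 21.7, 21.6 and 23.0 CPM with ginsenoside. Its level was 438, 434 and 414 CPM with dexamethasone and 434, 447 and 412 CPM with both agents. The interaction of Fkbp5, a co-chaperone of the receptor, was 0.11 ± 0.07 (95% interval -0.03 to 0.25), which lies inside 1.5-fold, or 0.10 without ginsenoside replicate 2. Tsc22d3, the leucine zipper protein GILZ, had 0.08 ± 0.08 (95% interval -0.07 to 0.24, or 0.06 without ginsenoside replicate 2) beside dexamethasone effects of 3.26 without and 3.34 with ginsenoside.

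Klf15, a transcription factor of muscle metabolism, was at 0.267, 0.331 and 0.254 CPM in control and 0.467, 0.576 and 0.318 CPM with ginsenoside, with as few as 10 counts in a library. With dexamethasone it was at 11.3, 10.6 and 11.3 CPM and with both at 11.9, 13.1 and 11.8 CPM. The interaction was -0.50 ± 0.23 (95% interval -0.99 to -0.01), or -0.30 without ginsenoside replicate 2. Although this interval leaves out 0, edgeR's quasi-likelihood test gave Klf15 an unadjusted p of 0.116 (adjusted p = 0.885). The metallothionein Mt2, which binds zinc, had the smallest p of the list. Mt2 was at 50.6, 55.4 and 52.6 CPM in control and 71.8, 65.9 and 57.6 CPM with ginsenoside, and at 1480, 1269 and 1548 CPM with dexamethasone and 1202, 1036 and 1301 CPM with both. The 2 dexamethasone groups overlapped, and the interaction was -0.58 ± 0.16 (95% interval -0.92 to -0.24, edgeR adjusted p = 0.868), or -0.57 without ginsenoside replicate 2. Its neighbour family member Mt1 had -0.70, and RSEM divides reads between such close copies by estimation.

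No interaction was detected among the atrophy genes. Of 27 tested members 0 were called, 0 had an unadjusted p below 0.05, 16 were above 0 and the median was 0.038. The 95% interval lay inside 1.5-fold for 25 of the 27, the exceptions being Trim63 and Mstn. Fbxo32, the ubiquitin ligase atrogin-1, was at 327, 282 and 276 CPM with dexamethasone and 362, 354 and 252 CPM with both agents, against 97.8, 95.4 and 95.6 CPM in control. The 2 dexamethasone groups overlapped, and the interaction was 0.19 ± 0.15 (95% interval -0.14 to 0.51), or 0.15 without ginsenoside replicate 2. Trim63, the ligase MuRF1, was at 86.4, 72.8 and 72.0 CPM with dexamethasone and 96.8, 93.8 and 75.2 CPM with both, against 30.9, 32.9 and 29.4 CPM in control and 34.5, 22.6 and 34.3 CPM with ginsenoside. Its interaction was 0.23 ± 0.20 (95% interval -0.18 to 0.64), or 0.06 without ginsenoside replicate 2.

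Foxo1, a transcription factor that activates both ligases, had -0.28 ± 0.13 with all libraries and -0.10 ± 0.07 without ginsenoside replicate 2, where it was at 98.7 CPM against 67.9 and 72.9 in the other ginsenoside libraries. Mstn, the growth inhibitor myostatin, had as few as 1 count in a library, and its interval of -1.58 to 1.96 says little. Ppargc1a, a coactivator of mitochondrial genes, had 0.08 ± 0.16. Igf1, the growth factor, was at 113, 106 and 113 CPM in control and 119, 153 and 121 CPM with ginsenoside, and at 6.82, 13.0 and 9.64 CPM with dexamethasone and 6.33, 5.99 and 10.1 CPM with both. Its interaction was -0.65 ± 0.27 (95% interval -1.23 to -0.06), or -0.52 without ginsenoside replicate 2, and the 2 dexamethasone groups overlapped. Grb10, an adaptor that dampens insulin signalling, was at 6.50, 7.39 and 7.24 CPM with dexamethasone and 9.74, 10.8 and 10.6 CPM with both, without overlap, and its ginsenoside effect there was 0.56 ± 0.10 (edgeR adjusted p = 0.0257). Its interaction was 0.34 ± 0.23 (95% interval -0.15 to 0.83), or 0.54 without ginsenoside replicate 2, with as few as 17 counts in a library.

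**Figure D3:**
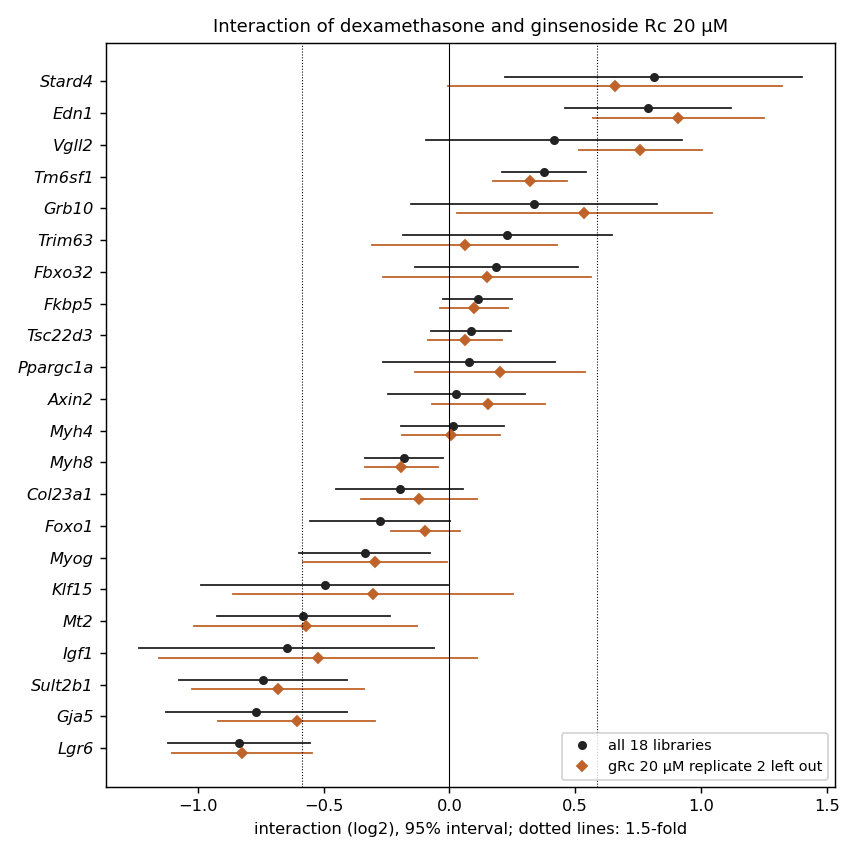
Interaction (horizontal axis, log2) with its 95% interval for 22 genes, with all libraries (circles) and without replicate 2 of the ginsenoside group (diamonds); dotted lines mark 1.5-fold. The intervals of Fkbp5, Tsc22d3 and Myh4 lie inside the dotted lines, and those of Lgr6, Gja5 and Edn1 exclude 0.

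The gene list with the highest median interaction was sterol biosynthesis. These genes make cholesterol from acetyl-CoA or take it up, and they are switched on together by the transcription factor SREBP2 when membrane sterol is low. Of 26 tested members 0 were called, 25 were above 0 and the median was 0.4653, against 0.0026 for all genes. An unadjusted p below 0.05 was found for 14 of them, or for 5 with no low-count filter. The median ginsenoside effect of the list was 0.0096 without dexamethasone and 0.4452 with it, and the median dexamethasone effect was 0.787 without and 1.234 with ginsenoside. No member passed either ginsenoside comparison.

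The libraries of the dexamethasone group were spread widely in this list. Its mean log2 CPM was 5.987, 6.006 and 5.947 in control and 6.027, 5.897 and 5.966 with ginsenoside. It was 7.142, 6.399 and 6.756 with dexamethasone and 7.289, 7.372 and 7.025 with both agents. Replicate 1 with dexamethasone lay above replicate 3 with both, so the groups overlapped, and replicate 2 with dexamethasone was the lowest of the 6. Without dexamethasone replicate 2 the median interaction was 0.2846, with 24 of 26 members above 0, and without dexamethasone replicate 1 it was 0.687. Without ginsenoside replicate 2 it was 0.4562, with 26 of 26 above 0. The number of members with an unadjusted p below 0.05 depended on single libraries. It was 1 without ginsenoside replicate 2 or without replicate 2 of the group with both agents, 4 to 8 without dexamethasone replicate 2 or 3, replicate 1 with both agents, control replicate 1 or 2 or ginsenoside replicate 3, 10 without control replicate 3 or ginsenoside replicate 1, and 19 or 20 without replicate 3 with both agents or dexamethasone replicate 1. Over all tested genes this number was 816 with all libraries, 895 without ginsenoside replicate 2 and 556 without replicate 2 with both agents. It was 1321 without replicate 3 with both agents and 1009 without dexamethasone replicate 1. What sets the spread between the dexamethasone libraries was not tested.

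Stard4, a cholesterol transfer protein, had the smallest p of the list. In control it was at 30.3, 33.5 and 31.9 CPM and with ginsenoside at 32.4, 21.7 and 30.7 CPM. The 3 dexamethasone libraries had 75.8, 44.6 and 55.1 CPM, and the 3 with both agents 98.6, 102 and 73.0 CPM. Its interaction was 0.81 ± 0.28 (95% interval 0.22 to 1.40, edgeR adjusted p = 0.885), or 0.66 without ginsenoside replicate 2, and the 2 dexamethasone groups overlapped by replicates 1 and 3. Hmgcs1 and Insig1 were picked for display after their values were seen. Hmgcs1, an early enzyme of the pathway, was at 209, 216 and 215 CPM in control and 229, 208 and 218 CPM with ginsenoside. It was at 584, 316 and 443 CPM with dexamethasone and 675, 723 and 561 CPM with both, and its interaction was 0.51 ± 0.22. The feedback protein Insig1 had 0.64 ± 0.30. In both genes replicate 2 was the lowest with dexamethasone and the highest with both agents, and replicate 1 with dexamethasone lay above replicate 3 with both. The transcription factor gene Srebf2 had 0.07 and its escort Scap -0.03.

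The promoter of Hmgcs1 is shown for the motifs that this programme is known for. It is the 250 bases before the RefSeq start at chr13:119690101-119690350 (GRCm38.p6, plus strand), with the same motifs in capitals on either strand.
Hmgcs1: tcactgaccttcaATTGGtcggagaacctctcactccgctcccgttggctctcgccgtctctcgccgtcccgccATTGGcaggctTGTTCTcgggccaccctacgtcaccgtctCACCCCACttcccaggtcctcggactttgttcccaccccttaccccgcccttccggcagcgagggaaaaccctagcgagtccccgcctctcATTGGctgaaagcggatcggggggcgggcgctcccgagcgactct

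The window held 1 sterol element core, 3 CCAAT boxes, read as ATTGG on the strand shown, and 1 glucocorticoid half-site. These compare with 2.576%, 33.86% and 16.09% of all promoter windows with at least 1 match.

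Fatty acid synthesis genes, which SREBP1 drives, placed the 3 libraries of each dexamethasone group in the same order as the sterol list. Of 16 tested members 0 were called, 15 were above 0 and the median was 0.2422, with 7 at an unadjusted p below 0.05. The smallest p was that of Acly, which makes cytosolic acetyl-CoA from citrate. The control libraries held Acly at 166, 165 and 161 CPM and the ginsenoside libraries at 162, 143 and 162 CPM. Dexamethasone libraries held it at 263, 184 and 208 CPM, and those with both agents at 296, 307 and 250 CPM. Its interaction was 0.45 ± 0.15, or 0.39 without ginsenoside replicate 2. The mean log2 CPM of the list was 6.973, 6.622 and 6.794 with dexamethasone and 7.123, 7.197 and 6.918 with both agents. The median interaction was 0.1674 to 0.3274 with each library left out in turn. The number at an unadjusted p below 0.05 was 2 without ginsenoside replicate 2 or dexamethasone replicate 2, 3 without replicate 2 with both agents, 4 without control replicate 2 or ginsenoside replicate 1, and 5 to 10 without each of the others.

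Cell cycle genes, which are low in differentiated muscle, had mostly negative interactions. Of 34 tested members 0 were called, 4 were above 0 and the median was -0.1603, with 2 at an unadjusted p below 0.05, Ccne2 at -0.48 ± 0.18 and Foxm1 at -0.52. The same libraries again stood apart: the mean log2 CPM of the list was 2.312, 2.844 and 2.579 with dexamethasone and 2.124, 2.141 and 2.725 with both agents, against 4.483 to 4.53 in control. Replicate 2 was the highest with dexamethasone, and replicate 3 the highest with both agents. The groups overlapped. With limma voom the median was -0.4063, with 12 at an unadjusted p below 0.05, beside 1673 of all tested genes (816 with edgeR). The median was -0.0512 without dexamethasone replicate 2 and -0.2907 without its replicate 1. Without replicates 1, 2 and 3 of the group with both agents it was -0.0730, -0.0865 and -0.5098. The number at an unadjusted p below 0.05 was 15 without replicate 3 with both agents and 4 without dexamethasone replicate 1. It was 1 without control replicate 1 or replicate 1 with both agents, and 0 without replicate 2 of either dexamethasone group. Over all tested genes it was 1321 without replicate 3 with both agents and 1009 without dexamethasone replicate 1. Without replicate 2 it was 653 for dexamethasone alone and 556 for both agents.

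**Figure D4:**
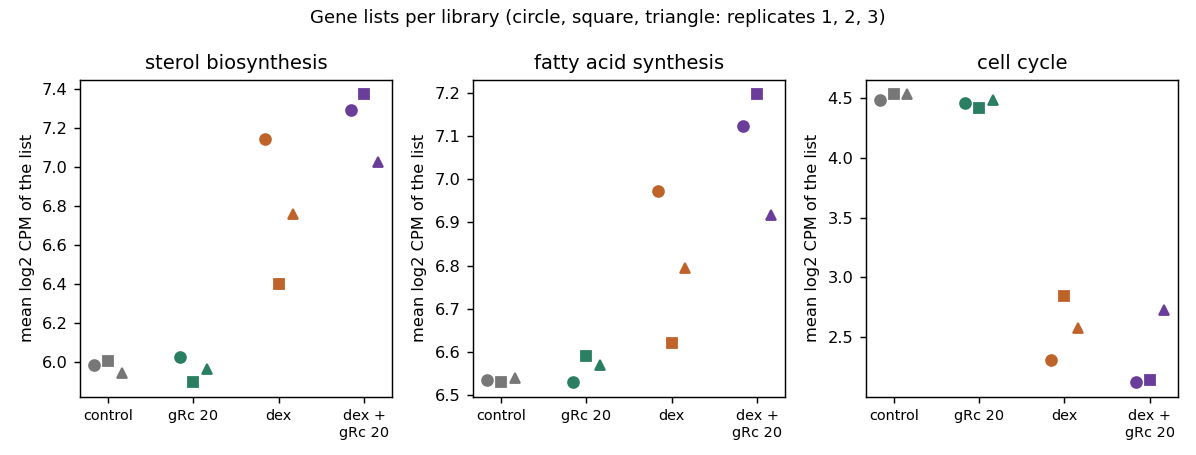
Mean log2 CPM (vertical axis) of the genes of 3 lists in the 12 libraries by group (horizontal axis), 1 point per library. Among the libraries with dexamethasone, the sterol list is lowest and the cell cycle list highest in replicate 2 of the group with dexamethasone alone.

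The lists of the following classes depended on ginsenoside replicate 2. The median of 59 nuclear genes of oxidative phosphorylation was 0.1266 with 50 above 0, and without that library it was -0.0357 with 16 above 0. The median of 48 ribosomal protein genes was 0.0711 with 36 above 0, and without it -0.0930 with 0 above 0. The 13 mitochondrially encoded genes had a median of -0.5671, and without it -0.0937. The share of counts of the ribosomal protein and mitochondrially encoded genes marked that library, and mt-Nd5 was at 1068, 2196 and 826 CPM in the ginsenoside group against 838, 758 and 891 CPM in control. The members of smallest p in the first 2 lists were Uqcrc2 at 0.13 ± 0.07 and Rps24 at -0.29 ± 0.19.

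Glycolysis and hypoxia genes had a median of 0.112, or 0.0749 without ginsenoside replicate 2, and 27 of 33 were above 0 in both fits. Egln1, an oxygen sensor of the hypoxia response, had the smallest p, with 0.26 ± 0.08. The 35 genes of the integrated stress and unfolded protein response had a median of 0.0924, with 23 above 0 and 6 at an unadjusted p below 0.05, Asns, which makes asparagine, leading at 0.28 ± 0.10. Among 11 myosin heavy chains the median was -0.1163 and 5 were above 0. Myh4, the chain of fast IIb fibres, had 0.01 ± 0.10 (95% interval -0.19 to 0.22), and Myh7b, a slow-type chain, had 0.37 ± 0.12. Among 25 myogenic regulators, which include Vgll2, the median was -0.0578 and 9 were above 0, or -0.0057 and 12 without ginsenoside replicate 2. Myog, the factor that drives differentiation, had -0.34 ± 0.12 (95% interval -0.60 to -0.08), or -0.30 without ginsenoside replicate 2. The 12 myotube markers had a median of -0.0594 and the 13 tested myoblast markers -0.1239.

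Lgr6 is 1 of 38 tested Wnt pathway genes, of which 10 were above 0 and the median was -0.0454, or -0.0112 without ginsenoside replicate 2, with Lgr6 the only member called in that fit. Its relatives Lgr4 and Lgr5 had 0.02 and -0.15. Among 21 endothelin and vasoactive genes, which hold Edn1 and Gja5, the median was -0.0449 and 10 were above 0, or 0.0141 and 13 without ginsenoside replicate 2. Of 28 YAP and TEAD targets 9 were above 0, with a median of -0.1069, or -0.0323 without that library. The other lists had medians between -0.0629 and 0.0727 and no member called. Among these, the median changed sign without ginsenoside replicate 2 for integrins and laminins (0.0046 to -0.0037), proteasome subunits (0.0491 to -0.0195), antioxidant defence and metallothioneins (0.0626 to -0.0088) and immediate early genes (-0.0422 to 0.0556). By smallest p, signalling and regulatory lists were led by the growth factor Tgfb3 at -0.16 ± 0.07, Nr4a1 at -0.50 ± 0.14, Cdkn1a, the inhibitor of cyclin-dependent kinases p21, at -0.32 ± 0.11, the kinase subunit Pik3cb at -0.28 ± 0.08 and the clock-linked repressor Nfil3 at 0.19 ± 0.09. Muscle structure and matrix lists were led by the myosin-binding protein Mybpc1 at 0.22 ± 0.08, the calcium pump Atp2a2 at 0.24 ± 0.10, the intermediate filament Nes at -0.28 ± 0.11 and the lysyl oxidase Loxl3 at -0.25 ± 0.11. Metabolic and stress lists were led by the lipase inhibitor Angptl4 at -0.27 ± 0.11, the glutathione transferase Gsta4 at -0.23 ± 0.10 and the mitochondrial chaperone Hspa9 at 0.17 ± 0.08. Others were led by the proteasome subunit Psma1 at 0.26 ± 0.14, the autophagy enzyme Atg7 at 0.15 ± 0.07 and the mitochondrial biogenesis gene Tfb1m at -0.20 ± 0.12. Il6 led the inflammatory genes at 2.58 ± 0.67, with as few as 2 counts in a library, so its value is imprecise.

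**Figure D5:**
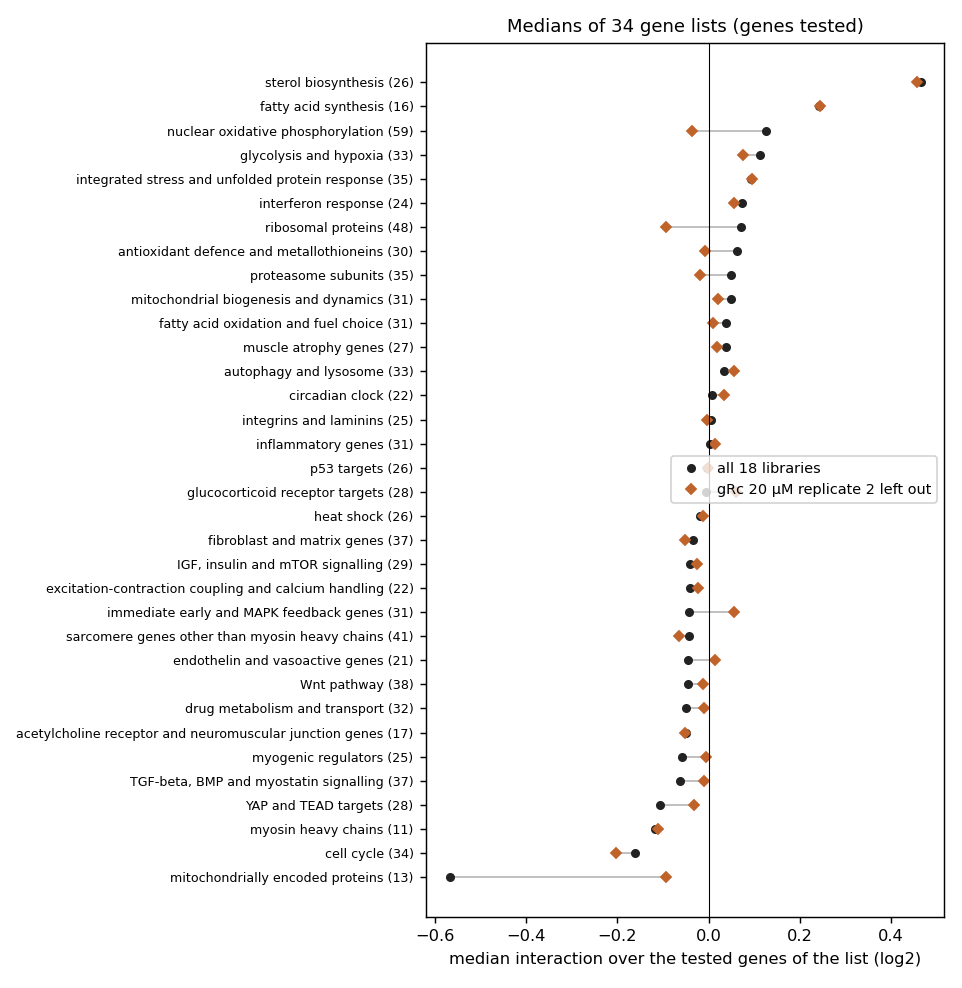
Median interaction (horizontal axis, log2) of the tested genes of 34 lists (vertical axis, number of genes tested in brackets), with all libraries (circles) and without replicate 2 of the ginsenoside group (diamonds). Sterol and fatty acid synthesis lie furthest above 0 in both fits, and the mitochondrially encoded genes move from -0.5671 to -0.0937.

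The interaction at 10 µM ginsenoside Rc uses the same control and dexamethasone libraries, so the values are not independent and are set side by side only. For Lgr6 it was -0.84 at 20 µM and -0.48 ± 0.13 at 10 µM, for Gja5 -0.77 and -0.54 ± 0.17, and for Sult2b1 -0.74 and -0.62 ± 0.16. For Edn1 it was 0.79 and 0.44 ± 0.15, for Dact1 0.57 and 0.53 ± 0.13, for Vgll2 0.42 and 0.33 ± 0.24 and for Stard4 0.81 and 0.32 ± 0.28. The control and dexamethasone libraries enter both values of each pair with the same sign. These genes were picked from those named for their values at 20 µM. The 10 µM values of the other named genes, Tm6sf1 among them, are not reported here.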

How the data were processed

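Poly-A RNA was sequenced on an MGI instrument as 100 bp paired ends with a directional kit, as the labels' protocols state. RSEM 1.3.3, STAR 2.7.3a, Trim Galore 0.6.5, FastQC 0.11.9 and the build GRCm38 are listed in the submitters' processing notes. Annotation release, filters and strand setting were not given in the sources used here, and overlapping or antisense genes may therefore share reads. The authors deposited expected counts, RSEM's estimate of fragments per gene (9.27% were fractional). Reads from close copies are shared out by the model, which makes genes such as Mt1, Mt2, the histones and the myosin heavy chains less certain. GENCODE M21 named 48349 of 48795 IDs, and the other 446 held 0.0385% of counts.

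Counts were rounded, filtered with filterByExpr, scaled by TMM and fitted with 1 mean for each of 6 groups over 18 libraries in edgeR 4.0.16 (R 4.3.3, robust quasi-likelihood, glmQLFTest, Benjamini-Hochberg at 0.05), so that all groups share 1 estimate of the spread. SE was taken as |log2 fold change| over the root of the F statistic. An interval can still be narrower than the p-value of edgeR's test implies, as for Klf15, and why was not tested. The shares of intervals inside 1.5-fold rest on the same SE. The detection floor was 3 counts, covering counting error only. Replicates differed by more than sampling noise. The chi-square per degree of freedom was 87.74 and 89.2 for the pairs with ginsenoside replicate 2, and 5.409 to 16.38 for the other pairs. Alternatives used DESeq2 1.42.0 and limma 3.58.1. List medians under each alternative were added after seeing the data.

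Members of the lists were written from general knowledge, and members, lists and tests were chosen with earlier results of these data known. Genes were named by this rule: those called with or without ginsenoside replicate 2; with them, 16 of smallest p at a mean log2 CPM of at least 1, and the 8 of smallest p without that library; the member of smallest p of each list; the 10 of smallest p in each ginsenoside comparison; and 18 fixed genes. Hmgcs1, Insig1, Srebf2, Scap, Foxm1, Mt1, Lgr4, Lgr5 and Rassf2 were chosen after their values were seen. Some genes that the rule names are not reported here. Promoter sequences and starts came from RefSeq.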

Additional observations from a re-analysis of the deposited data

Results flagged for a closer look

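With all libraries, edgeR's quasi-likelihood test and limma voom called no gene for a difference in ginsenoside effect between cultures with and without dexamethasone. A test of that difference passed for Lgr6 and Vgll2 when replicate 2 of the ginsenoside group was left out, and for Lgr6 with DESeq2. Without that library, edgeR gave Lgr6 an interaction of -0.8255 (log2, adjusted p = 0.0255), beside -0.84 (adjusted p = 0.117) with all libraries. It gave Vgll2 0.7589 (adjusted p = 0.0255), beside 0.42 (adjusted p = 0.885) with all libraries, so that 1 library moved this value by over 1.5 times. DESeq2 with all libraries gave Lgr6 -0.843 (adjusted p = 0.000326), and edgeR with no low-count filter called it too (adjusted p = 0.00563). Edn1 passed in 1 setting, the replicate block with that library left out (0.91, adjusted p = 0.0128), beside 0.79 (adjusted p = 0.47) with all libraries. For Lgr6, the 3 libraries with both agents were below the 3 with dexamethasone alone. For Vgll2, the 3 libraries with both agents were above those with dexamethasone alone, and the 2 remaining ginsenoside libraries were below all 3 control libraries. Groups of 3 are too small for a test of single outlying libraries.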

How the results depend on the processing

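The interaction was called for 0 to 2 genes with 1 of the 12 libraries left out in turn, and the 2 arose without ginsenoside replicate 2. It was called for 1 gene with no low-count filter (Lgr6), for 1 with DESeq2 (Lgr6) and for 3 with the replicate block and that library left out (Edn1, Lgr6 and Vgll2). It was called for 0 with median-ratio size factors, no composition scaling, limma voom, only 4 groups in the model or the replicate block alone. No pairing of libraries by replicate number was seen. Deviations from the group means correlated at -0.3125 to 0.1695 over 18 same-numbered pairs, and 1 of 12 libraries correlated best with its own number. With groups of 3, such correlations cannot exclude that libraries of the same number were prepared together. The replicate block alone gave 12 and 62 genes in the ginsenoside comparisons without and with dexamethasone, and 67 and 468 with the library left out.

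The ginsenoside effect without dexamethasone gave 28 genes with no low-count filter, 107 with DESeq2, 147 with limma voom and 6 with only 4 groups, and 5 to 44 with 1 library left out. With dexamethasone these were 95, 258, 957 and 9, and 6 to 341. The causes were not tested. Dexamethasone gave 6755 genes without ginsenoside, 3177 higher, and 7555 with it, 3631 higher. Both counts were within 1.5 times of these under every alternative, but with no composition scaling the higher genes were 2368 of 6761 and 2921 of 7440. For dexamethasone-responsive genes of any fold, the median interaction was 0.0245 for raised and -0.0405 for lowered genes, and with 1 library left out 0.0520 to 0.108 and -0.215 to -0.0809 for those above 2-fold. Of 71 named genes 67 kept their sign in all 20 alternatives, the exceptions being Fbln7, Mstn, Myh4 and Axin2. Precision is limited by 3 libraries a group and by low counts for Mstn, Il6, Klf15 and Grb10.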
